A study of Homo sapiens with 13 samples.

Results

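The genes described here encode laminins, integrins, type IV collagens, nidogens, perlecan and dystroglycan, the proteins of the basement membrane and their receptors on epithelial cells. They were chosen by symbol: LAMA, LAMB and LAMC with a number, ITGA and ITGB with a number or L, COL4A with a number, and NID1, NID2, HSPG2 and DAG1. These patterns gave 43 of the 23886 symbols listed in each of the 2 deposited tables, and integrins with other letters, such as ITGAV, lie outside them. A mean of at least 10 normalised counts was reached by 29 members in the siSOX9 table and by 27 in the siY14 table.

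RNA-seq had been done on 13 samples of DLD-1, a human colorectal adenocarcinoma cell line of epithelial character, transfected with siRNA at 50 nM and collected 72 h later. The siSOX9 arm held 4 samples, 3 from experiment 1 and 1 from experiment 2, and its siCtrl arm held 2 and 1. The siY14 arm held 2 samples with siRNA 9 and 2 with siRNA 10, all from experiment 3, which gave 2 siCtrl samples. SOX9 is a DNA-binding transcription factor present in crypts of the intestine, and Y14, encoded by RBM8A, belongs to the exon junction complex, which is left on RNA where introns were removed. The series title concerns what SOX9 does in splicing and in transcription. Every sample came from this 1 cell line and was transfected, siCtrl samples included. The labels do not say whether replicates were separate cultures, so the p-values cover only sample-to-sample spread, some of which could be technical. In cultures of whole cells, fewer expressing cells and less RNA per cell cannot be told apart.

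Laminins are trimers of an alpha, a beta and a gamma chain that assemble into a sheet on the cell surface. Type IV collagen forms a second network, and nidogen and perlecan link the sheets. Integrins, each an alpha chain paired with a beta chain, and dystroglycan bind this matrix from the cell side. In intestinal epithelium the pair of ITGA6 and ITGB4 anchors cells to laminin in hemidesmosomes, and the pairs of ITGB1 with ITGA2, ITGA3 or ITGA6 bind collagen and laminin. LAMA2 is best known as the alpha chain of the laminin around muscle fibres and Schwann cells.

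Among genes of this set, SOX9 knockdown went with a 3.68-fold higher mean of LAMA2 and with lower means of perlecan, ITGB4, ITGB6 and dystroglycan. Y14 knockdown went with lower ITGA6, ITGA1 and ITGA3 and with higher COL4A2. By an authors' adjusted p under 0.05, 5 of 43 members were called for siSOX9, beside 3.47% of all genes with reads, and 4 of 43 for siY14, beside 9.16%. The 43 include 2 members listed at 0 in each table. With a mean of at least 10, 5 of 29 members were called for siSOX9, beside 4.69% of all such genes. For siY14 the same counts were 4 of 27, beside 12.0%. No member was called in both comparisons, but with so few calls in each, this does not show that the knockdowns acted on different members.

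Because the perturbed protein in the first comparison is a DNA-binding factor, the 250 bases before the annotated start of LAMA2, HSPG2 and ITGB6 are shown for reference, from RefSeq on GRCh38.p14. Of the 5 members called in the siSOX9 table, these 3 and DAG1 had RefSeq windows, those of DAG1 are not printed since they held no match, and ITGB4 is named only. Capitals mark any of 4 hexamers, which are ACAAAG, the near relative ACAATG, the form TCAAAG and lastly TCAATG, a common way to write the core bound by SOX proteins, read on both strands. No 2 matches overlap in these windows, and a match is a description of the letters only. The window of LAMA2 lies at chr6:128882888-128883137 on the plus strand, that of HSPG2 at chr1:21937311-21937560 on the minus strand and that of ITGB6 at chr2:160200273-160200522 on the minus strand.

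LAMA2: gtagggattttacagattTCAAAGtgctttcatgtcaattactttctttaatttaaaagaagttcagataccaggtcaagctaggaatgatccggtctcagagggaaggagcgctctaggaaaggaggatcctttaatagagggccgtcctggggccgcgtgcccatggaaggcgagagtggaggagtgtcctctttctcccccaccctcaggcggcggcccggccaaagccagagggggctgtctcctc
HSPG2: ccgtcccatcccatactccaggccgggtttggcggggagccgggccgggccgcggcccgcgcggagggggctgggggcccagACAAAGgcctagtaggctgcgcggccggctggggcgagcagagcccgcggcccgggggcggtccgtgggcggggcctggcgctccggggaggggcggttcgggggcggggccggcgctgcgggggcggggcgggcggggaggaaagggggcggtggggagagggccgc
ITGB6: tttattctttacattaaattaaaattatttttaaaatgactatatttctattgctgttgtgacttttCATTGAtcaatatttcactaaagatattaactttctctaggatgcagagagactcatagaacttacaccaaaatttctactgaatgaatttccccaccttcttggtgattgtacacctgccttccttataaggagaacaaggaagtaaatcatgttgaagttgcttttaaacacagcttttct

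LAMA2 held 1 match that began 232 bases before the start, HSPG2 held 1 that began 168 bases before it, and ITGB6 held 1 that began 183 bases before it. Both windows of DAG1 held 0 matches. Of all 35116 RefSeq windows, 11681 (33.3%) held at least 1 match in the same 250 bases, so a match is common. Binding of SOX9 at these windows was not measured in the files analysed here.

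COL4A1 and COL4A2 are transcribed away from each other from neighbouring starts, and this stretch is shown because the 2 genes took different values in the siY14 comparison. The 126 bases between the starts, chr13:110307158-110307283 on GRCh38.p14, are shown on the plus strand, along which COL4A2 is read. They are 80.2% G and C and hold 1 of the hexamers, again in capitals.

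COL4A1-COL4A2: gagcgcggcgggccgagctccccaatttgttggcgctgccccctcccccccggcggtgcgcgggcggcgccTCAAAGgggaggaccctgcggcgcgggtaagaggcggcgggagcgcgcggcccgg

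The deposited tables hold means of normalised counts per arm, with no column per library. Whole reads of single libraries were recovered from the 15 digits of those means. Recovered libraries carry no sample name and are lettered by depth, a being the deepest. Reads came out in both arms for 17 members with a mean of at least 10 in the siSOX9 table and for 12 in the siY14 table. Members with the highest means were resolved only in the siCtrl arm and are given as arm means in the knockdown arm. Library depth was 24.8 to 184 M counts for the siSOX9 arm and 25 to 179 M for its siCtrl arm. It was 49.5 to 71.6 M for the siY14 arm, with 47.2 and 67.1 M for its siCtrl arm. In the siSOX9 table the deepest library of each arm stood apart from the others, and the deviations of these 2 libraries from their arm means correlated at r = 0.84 across 6645 genes. By the labels each of these arms held 1 sample of experiment 2, and whether the deepest libraries are those samples cannot be told. The fits made here on recovered reads had no term for this split unless one is named. In the siY14 arm, libraries a and c, and b and d, differed by little more than counting noise, with a mean chi-square per gene of 1.08 and 1.15, against 18.8 to 25.9 for the other pairs. The 2 siCtrl libraries of experiment 3 were also close to each other, with a mean chi-square per gene of 1.44. The 4 siY14 libraries thus varied much as 2 samples would, and p-values that take them as 4 independent samples are too small. Whether the pairs follow the 2 siRNAs or another grouping cannot be told from the table. SOX9 averaged 9067 normalised counts in siSOX9 cells and 24468 in siCtrl cells, a log2 ratio of -1.43 (adjusted p = 1.40e-04) in the authors' deposited table. RBM8A was listed at 0 in both tables, so the Y14 knockdown was not checked.

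**Figure D1:**
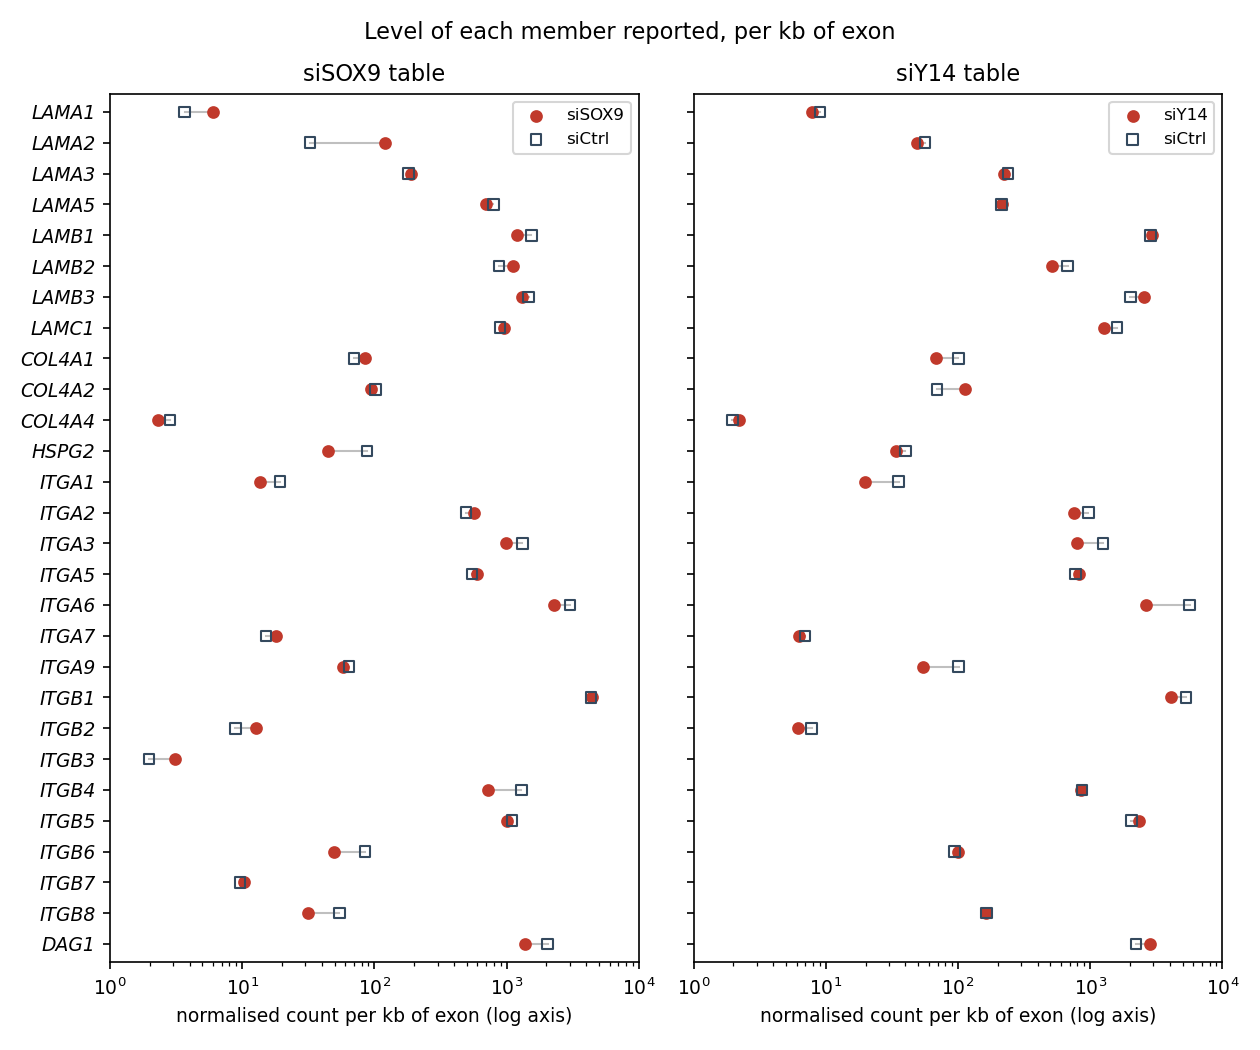
Mean normalised count per kb of exon (log axis) for each member reported here with a mean of at least 10, in the siSOX9 table on the left and the siY14 table on the right. Filled circles are the knockdown arm and open squares its siCtrl arm; LAMA2 sits at 120 per kb in siSOX9 cells and 32.6 in siCtrl cells, while ITGB1 is among the highest members in both tables.

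LAMA2 had the largest log2 ratio, in size, of any member with a mean of at least 10 in either comparison. LAMA2 had 1246, 1015, 1262 and 1133 normalised counts in the 4 siSOX9 libraries, against 318, 281 and 351 in the 3 siCtrl libraries. Every siSOX9 library lay above every siCtrl library, with a wide gap between the arms. The authors' deposited table gave LAMA2 a log2 ratio, taken here as that of the knockdown mean over the siCtrl mean, of 1.88 (adjusted p = 1.12e-18). limma-voom on the recovered reads gave 1.90 ± 0.12 (SE, adjusted p = 3.30e-05). Both deepest libraries sat among the others of their arm, and without them the limma-voom log2 ratio was 1.87 (adjusted p = 3.98e-14).

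Set per kb of exon, which allows levels of different genes to be compared, LAMA2 stood at 120 normalised counts per kb in siSOX9 cells and 32.6 in siCtrl cells. LAMA5, the alpha chain of the main laminin of epithelial basement membranes, stood at 701 in siSOX9 cells and 792 in siCtrl cells. LAMA3, the alpha chain of the hemidesmosomal laminin, stood at 188 in siSOX9 cells and 180 in siCtrl cells. LAMA2 thus made up 11.8% of the summed alpha-chain level in siSOX9 cells and 3.23% in siCtrl cells. The order of the alpha chains was LAMA5, LAMA3, LAMA2, LAMA1 in both arms, and LAMA4 had under 1 normalised count on average. Exon lengths come from an annotation on a later build than the authors used, so these levels are approximate.

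The other alpha chains were not past the threshold. LAMA1, the alpha chain of early embryonic laminin, had 61.0, 49.4, 72.5 and 53.9 normalised counts in siSOX9 libraries, against 49.9, 23.2 and 35.3 in siCtrl libraries. The arms touched, since the lowest siSOX9 value lay just under the highest siCtrl value. Its log2 ratio was 0.71 (adjusted p = 0.969) in the authors' deposited table. limma-voom gave 0.55 ± 0.25 (SE, adjusted p = 0.175), and 1.03 (adjusted p = 0.0234) without the deepest library of each arm. LAMA3 had between 2012 and 2153 normalised counts in siSOX9 libraries and between 1891 and 2059 in siCtrl libraries, so its arms overlapped. LAMA5 averaged 8013 normalised counts in siSOX9 cells and 9053 in siCtrl cells, with a log2 ratio of -0.18 (adjusted p = 1) in the authors' deposited table.

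The beta and gamma chains that LAMA2 would pair with did not pass the threshold under SOX9 knockdown. LAMB1, a beta chain of most laminins, averaged 7415 normalised counts in siSOX9 cells and 9562 in siCtrl cells. Its siCtrl libraries had 10970, 8800 and 8915, so the deepest one set the high end, and the authors' deposited table gave -0.37 on the log2 scale (adjusted p = 0.409). LAMB2, the beta chain of synaptic and kidney laminins, averaged 6413 in siSOX9 cells and 5050 in siCtrl cells, a log2 ratio of 0.35 (adjusted p = 0.49) in the authors' deposited table. LAMC1, the gamma chain of most laminins, averaged 7502 in siSOX9 cells and 7041 in siCtrl cells. LAMB3, the beta chain that pairs with LAMA3, averaged 5882 normalised counts in siSOX9 cells and 6586 in siCtrl cells (adjusted p = 1 in the authors' deposited table). Expressed per kb, LAMB1, LAMB2 and LAMB3 lay at 1192, 1113 and 1310 in siSOX9 cells and at 1538, 877 and 1467 in siCtrl cells. LAMC1 lay at 951 per kb in siSOX9 cells and 892 in siCtrl cells.

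Perlecan, the heparan sulphate proteoglycan encoded by HSPG2, was the matrix member that fell under SOX9 knockdown. HSPG2 had 623, 605, 750 and 566 normalised counts in siSOX9 libraries, against 1230, 1344 and 1189 in siCtrl libraries. All 4 siSOX9 libraries lay below all 3 siCtrl libraries. In the authors' deposited table the mean was 1.97-fold lower, a log2 ratio of -0.98 (adjusted p = 2.18e-05). limma-voom gave -0.99 ± 0.10 (SE, adjusted p = 2.47e-04). Exons of LDLRAD2 on the opposite strand cover 11.6% of the HSPG2 exons, and the sources used here do not say if counting used strand.

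None of the 6 type IV collagen genes was called under SOX9 knockdown, 0 had an unadjusted p under 0.05 in the authors' deposited table, and limma-voom, which called 17.9% of all genes it tested, called 0 of 3, 1 with an unadjusted p under 0.05. COL4A2 had 969, 1257, 1257 and 1370 normalised counts in siSOX9 libraries, against 1209, 1412 and 1355 in siCtrl libraries, and the arms overlapped. COL4A1 had 620, 670, 721 and 557 in siSOX9 libraries, against 547, 511 and 525 in siCtrl libraries. These COL4A1 arms did not overlap, and the gap between them was narrow. COL4A1 had a log2 ratio of 0.28 (adjusted p = 1) in the authors' deposited table, and 0.26 ± 0.10 (SE, adjusted p = 0.107) by limma-voom, which gave 0.34 (adjusted p = 0.0215) without the deepest library of each arm. With a term that sets the deepest library of each arm apart, a fit added after seeing the data, limma-voom gave 0.25 (adjusted p = 0.00621) for COL4A1 and -0.21 (adjusted p = 0.00258) for COL4A2. COL4A4, a chain of the kidney glomerulus and other specialised membranes, had 8.29 to 40.8 normalised counts in siSOX9 libraries and 18.7 to 39.5 in siCtrl libraries. COL4A3, COL4A5 and COL4A6 had means under 10 in both tables, as did NID1 and NID2.

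**Figure D2:**
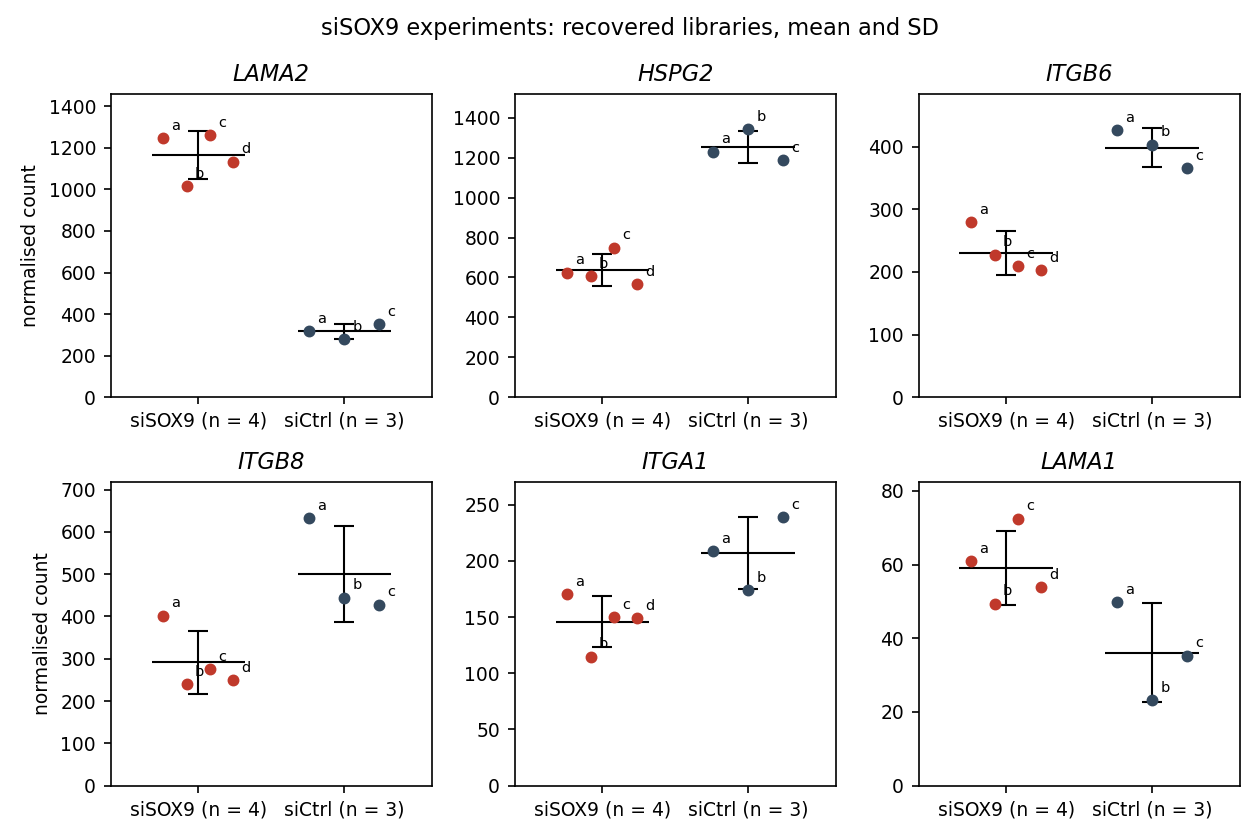
Normalised counts of 6 members in each recovered library of the siSOX9 table; points are libraries lettered by depth, the line is the arm mean and the bar 1 SD (4 siSOX9 libraries on the left, 3 siCtrl libraries on the right). LAMA2 is higher and HSPG2, ITGB6 and ITGB8 are lower in every siSOX9 library, and the LAMA1 arms touch.

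Among the receptors, 2 of 8 integrin beta chains and dystroglycan were called lower under SOX9 knockdown, beside 2.27% of all genes with reads. ITGB4, the beta chain of hemidesmosomes, averaged 4472 normalised counts in siSOX9 cells and 7988 in siCtrl cells. Its siCtrl libraries had 7453, 8572 and 7940, all well above the siSOX9 mean. The authors' deposited table gave a log2 ratio of -0.84 (adjusted p = 1.91e-04). ITGA6, the alpha chain that pairs with ITGB4, averaged 13224 in siSOX9 cells and 17642 in siCtrl cells, where its libraries had 17366, 17571 and 17989. The ITGA6 log2 ratio was -0.42 (adjusted p = 0.249) in the authors' deposited table.

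ITGB6, the beta chain of an epithelial receptor that activates latent TGF-beta, had 280, 227, 209 and 203 normalised counts in siSOX9 libraries, against 426, 403 and 365 in siCtrl libraries. Each siSOX9 value lay below each siCtrl value. The authors' deposited table gave a log2 ratio of -0.79 (adjusted p = 0.0334), and limma-voom gave -0.75 ± 0.13 (SE, adjusted p = 0.00459). Exons of the uncharacterised gene AC092153.1 on the same strand cover 20.6% of the ITGB6 exons, and reads there could be split or dropped. ITGB8, the other beta chain known to activate latent TGF-beta, had 402, 240, 275 and 249 in siSOX9 libraries, against 632, 444 and 428 in siCtrl libraries. The arms did not overlap, and in each arm the deepest library was the highest. ITGB8 had a log2 ratio of -0.78 (adjusted p = 0.443) in the authors' deposited table, so it was not called there. limma-voom gave -0.77 ± 0.22 (SE, adjusted p = 0.0371), and -0.79 ± 0.13 (SE, adjusted p = 7.77e-06) without the deepest library of each arm. With the term that sets the deepest libraries apart, added after seeing the data, limma-voom gave -0.70 (adjusted p = 8.49e-09). With siSOX9 library b, c or d left out, the limma-voom adjusted p of ITGB8 was 0.0861 to 0.0932, and without siCtrl library a it was 0.178. The common alpha partner of both chains, ITGAV, is outside the gene set and was looked up after its values were seen. ITGAV averaged 8287 in siSOX9 cells and 6751 in siCtrl cells, a log2 ratio of 0.30 (adjusted p = 0.982) in the authors' deposited table.

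Dystroglycan, encoded by DAG1, links laminin to the actin cytoskeleton. DAG1 averaged 8942 normalised counts in siSOX9 cells and 13200 in siCtrl cells, where the libraries had 11972, 14325 and 13304. In the authors' deposited table the log2 ratio was -0.56 (adjusted p = 0.0304).

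The remaining integrins were not called under SOX9 knockdown. ITGB1, the common partner of most alpha chains, averaged 17267 normalised counts in siSOX9 cells and 17020 in siCtrl cells, a log2 ratio of 0.02 in the authors' deposited table. ITGB5, a vitronectin receptor chain, averaged 4432 in siSOX9 cells and 4812 in siCtrl cells. ITGA3, a laminin receptor chain, averaged 4812 in siSOX9 cells and 6430 in siCtrl cells, with a log2 ratio of -0.42 (adjusted p = 0.243) in the authors' deposited table. ITGA2, a collagen receptor chain, averaged 4419 in siSOX9 cells and 3884 in siCtrl cells. ITGA5, the fibronectin receptor chain, had 2576 to 2690 in siSOX9 libraries and 2364 to 2454 in siCtrl libraries, a gap of small size between arms that did not overlap. ITGA1, another collagen receptor chain, had 170, 115, 150 and 149 in siSOX9 libraries, against 209, 174 and 239 in siCtrl libraries, and its arms did not overlap. ITGA1 had a log2 ratio of -0.51 (adjusted p = 0.711) in the authors' deposited table and -0.44 ± 0.16 (SE, adjusted p = 0.0903) by limma-voom. Without siSOX9 library a the limma-voom adjusted p was 0.0303, and with any other single library left out it was 0.0795 to 0.24. Without the deepest library of each arm limma-voom gave -0.56 (adjusted p = 0.0175). With the term that sets those libraries apart, added after seeing the data, limma-voom gave -0.39 (adjusted p = 0.00475). ITGA9 averaged 464 in siSOX9 cells and 517 in siCtrl cells, and ITGA7, ITGB2, ITGB3 and ITGB7 had means between 13.5 and 81.6 in siSOX9 cells and between 8.68 and 68.3 in siCtrl cells. Another gene covers 51.6% of the exons of ITGB3 and 51.4% of those of ITGB7, which makes these 2 counts uncertain.

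Counted over the set, 5 of 43 members were past an authors' adjusted p of 0.05 under SOX9 knockdown, 1 higher and 4 lower. Over all genes with reads 1.19% were called higher and 2.27% lower. Above the same minimum mean of 10 the share called in either direction was 4.69%, beside 5 of 29 members. The median log2 fold change of the 29 members with a mean of at least 10 was -0.12, beside 0.01 for all such genes. limma-voom called 4 of the 17 members it could test, which were LAMA2, HSPG2, ITGB6 and ITGB8, and it called 17.9% of all genes tested. The arms did not overlap for 9 of these 17 members, beside 28.8% of all genes with recovered reads. With the term for the deepest libraries limma-voom called 11 of the 17 members and 3870 of 8104 genes, and the members added were LAMA1, COL4A1, COL4A2, ITGA1, ITGA5, ITGA9 and ITGB3.

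The second comparison set the pooled siY14 libraries against the siCtrl libraries of experiment 3. LAMA2 had 526, 403, 541 and 417 normalised counts in siY14 libraries, against 530 and 559 in siCtrl libraries. The arms overlapped, and libraries a and c lay close to the siCtrl values while b and d lay lower. The authors' deposited table gave LAMA2 a log2 ratio of -0.21 (adjusted p = 0.613). Per kb, LAMA2 stood at 48.6 in siY14 cells and 56.1 in siCtrl cells, which was 9.88% of the summed alpha-chain level in siY14 cells and 10.8% in siCtrl cells. The tables were normalised separately, so these levels are set beside those of the siSOX9 table without a test.

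None of the 12 laminin chains passed the threshold of the authors' deposited table for siY14, where 2 had an unadjusted p under 0.05, and limma-voom, which called 18.6% of all genes it tested, called 0 of 2, with 0 at an unadjusted p under 0.05. LAMB3 averaged 11390 normalised counts in siY14 cells and 9006 in siCtrl cells, a log2 ratio of 0.34 (adjusted p = 0.221) in the authors' deposited table. LAMB2 averaged 2933 in siY14 cells and 3886 in siCtrl cells, a log2 ratio of -0.41 (adjusted p = 0.11) in the authors' deposited table. LAMC1 averaged 10086 in siY14 cells and 12524 in siCtrl cells, a log2 ratio of -0.31 (adjusted p = 0.354) in the authors' deposited table. LAMB1 averaged 18164 in siY14 cells and 17777 in siCtrl cells, and LAMA3 averaged 2439 in siY14 cells and 2638 in siCtrl cells. LAMA5 averaged 2452 in siY14 cells and 2440 in siCtrl cells, and LAMA1 averaged 77.4 in siY14 cells and 89.0 in siCtrl cells. These 4 chains had log2 fold changes between -0.20 and 0.03 in the authors' deposited table.

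COL4A2 was the matrix member that rose under Y14 knockdown. It had 1634, 1346, 1556 and 1280 normalised counts in siY14 libraries, against 922 and 877 in siCtrl libraries. All 4 siY14 libraries lay above both siCtrl libraries, in both pairs. The authors' deposited table gave a log2 ratio of 0.69 (adjusted p = 0.00575), and limma-voom gave 0.69 ± 0.13 (SE, adjusted p = 0.0225). With each siY14 pair summed to 1 sample, limma-voom gave 0.69 ± 0.15 (SE, adjusted p = 0.165). COL4A2 also missed the threshold with either siCtrl library left out, where the limma-voom adjusted p was 0.184 or 0.233.

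COL4A1, whose protein assembles with that of COL4A2 in the same trimer, took another course. COL4A1 had 760, 256, 785 and 257 in siY14 libraries, against 706 and 805 in siCtrl libraries. Libraries a and c lay within the siCtrl range, and b and d lay far below it. The arm mean of 515 in siY14 cells, against 756 in siCtrl cells, therefore describes neither pair, and its log2 ratio in the authors' deposited table was -0.56 (adjusted p = 0.647). COL4A2, which starts at the other end of the sequence printed above, also had libraries a and c above b and d, by a smaller margin, and its lowest siY14 library lay above both siCtrl libraries. COL4A4 averaged 22.1 in siY14 cells and 19.7 in siCtrl cells, and its arms overlapped. HSPG2 had 535, 451, 519 and 437 in siY14 libraries, against 591 and 554 in siCtrl libraries, a log2 ratio of -0.24 (adjusted p = 0.502) in the authors' deposited table.

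**Figure D3:**
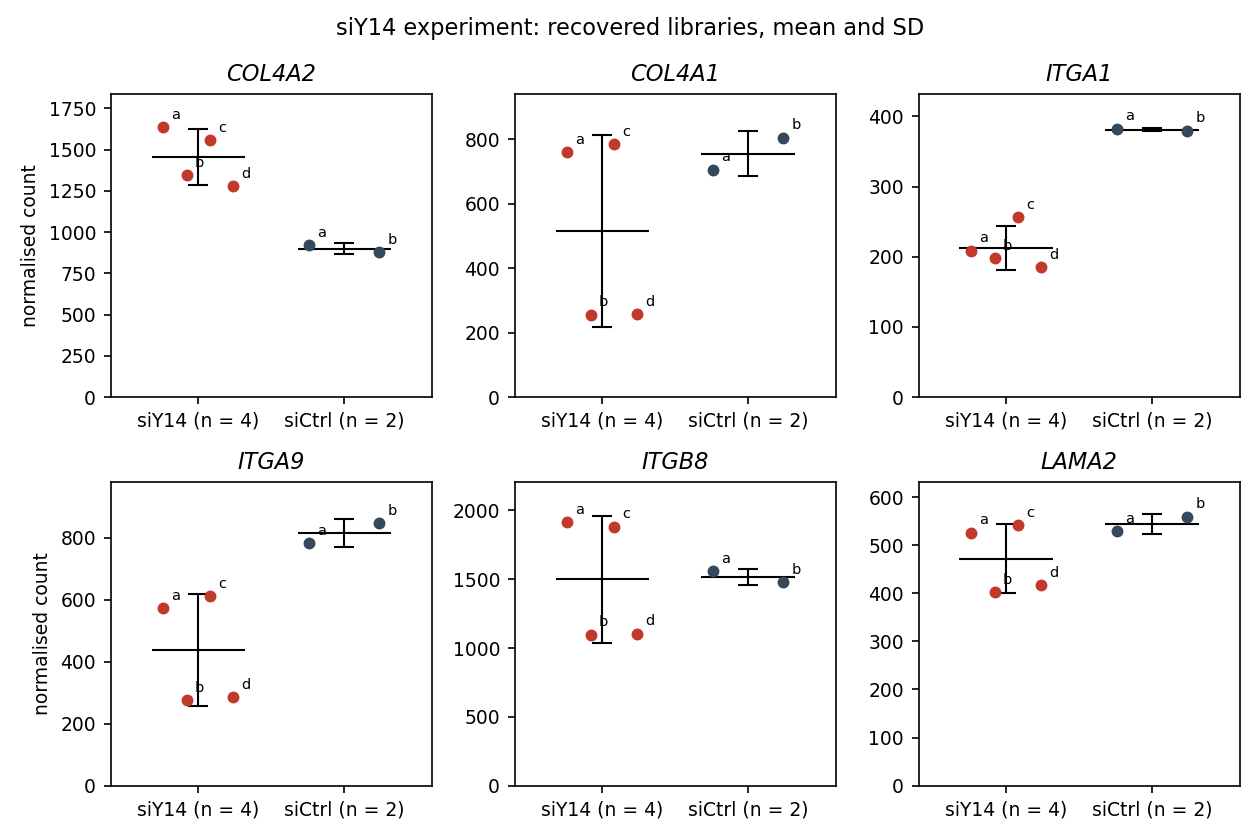
Normalised counts of 6 members in each recovered library of the siY14 table; points are libraries lettered by depth, the line is the arm mean and the bar 1 SD (4 siY14 libraries on the left, 2 siCtrl libraries on the right). COL4A2 is higher and ITGA1 and ITGA9 are lower in all siY14 libraries, while COL4A1 and ITGB8 fall into the pairs a with c and b with d.

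Among the receptors, 3 of 12 integrin alpha chains were called lower for siY14 in the authors' deposited table, beside 5.35% of all genes with reads. Over the whole set the 4 of 43 members called lay near the share of all genes with reads, 9.16%. These p-values take the 4 siY14 libraries as separate samples. ITGA6 averaged 15300 normalised counts in siY14 cells and 32995 in siCtrl cells, where the libraries had 33130 and 32860. The authors' deposited table gave a log2 ratio of -1.11, a 2.16-fold lower mean, with an adjusted p of 0.0214. ITGB4, its hemidesmosomal partner, averaged 5288 in siY14 cells and 5367 in siCtrl cells, a log2 ratio of -0.02 in the authors' deposited table. ITGA3 averaged 3862 in siY14 cells and 6100 in siCtrl cells, a log2 ratio of -0.66 (adjusted p = 0.0375) in the authors' deposited table. The reads of ITGA6 and ITGA3 were not recovered in the siY14 arm, so whether the library pairs differed was not seen for them.

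ITGA1 had 209, 198, 257 and 185 normalised counts in siY14 libraries, against 383 and 380 in siCtrl libraries. All siY14 libraries lay below both siCtrl libraries. The log2 ratio was -0.85 (adjusted p = 0.00134) in the authors' deposited table, and limma-voom gave -0.86 ± 0.14 (SE, adjusted p = 0.0169). With each siY14 pair summed, limma-voom gave -0.86 ± 0.16 (SE, adjusted p = 0.165). With either siCtrl library left out the limma-voom adjusted p of ITGA1 was 0.156 or 0.217. PELO shares 475 exonic bases with ITGA1 on the same strand and averaged 2.83 normalised counts in siY14 cells and 1.53 in siCtrl cells.

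ITGA9, a receptor chain for tenascin and other matrix proteins, had 573, 275, 612 and 286 in siY14 libraries, against 782 and 847 in siCtrl libraries. The arms did not overlap, and libraries b and d lay lower than a and c. ITGA9 had a log2 ratio of -0.90 (adjusted p = 0.0819) in the authors' deposited table and was not called. ITGB8 had 1914, 1096, 1881 and 1104 in siY14 libraries, against 1556 and 1477 in siCtrl libraries. Its pairs lay on both sides of the siCtrl values, so the log2 ratio of -0.02 in the authors' deposited table averages 2 different levels. ITGB6 followed the same order, with 553, 384, 559 and 381 in siY14 libraries, against 439 and 442 in siCtrl libraries. No test of 1 pair against the other was made, since the pairs were seen only in the data.

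The other receptors of the set were not called under Y14 knockdown. ITGB1 averaged 15912 normalised counts in siY14 cells and 20843 in siCtrl cells, a log2 ratio of -0.39 (adjusted p = 0.125) in the authors' deposited table. ITGA2 averaged 5893 in siY14 cells and 7606 in siCtrl cells, a log2 ratio of -0.37 (adjusted p = 0.749) in the authors' deposited table. ITGB5 averaged 10210 in siY14 cells and 8919 in siCtrl cells, and ITGA5 averaged 3659 in siY14 cells and 3444 in siCtrl cells. DAG1 averaged 18439 in siY14 cells and 14354 in siCtrl cells, a log2 ratio of 0.36 (adjusted p = 0.208) in the authors' deposited table. ITGA7 and ITGB2 averaged 28.2 and 21.6 in siY14 cells and 31.5 and 27.4 in siCtrl cells. ITGAV, outside the set, was called lower, with 7888 in siY14 cells and 11896 in siCtrl cells, a log2 ratio of -0.59 (adjusted p = 0.0099) in the authors' deposited table.

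Counted over the set, 4 of 43 members were past an authors' adjusted p of 0.05 in the siY14 table, 1 higher and 3 lower. Over all genes with reads 3.81% were called higher and 5.35% lower. Above the same minimum mean of 10 the share called in either direction was 12.0%, beside 4 of 27 members. The median log2 fold change of the 27 members with a mean of at least 10 was -0.20, beside -0.001 for all such genes. By family, 6 of 7 integrin alpha chains with a mean of at least 10 had a log2 fold change under 0, with a median of -0.66. Only 3 of these 7 were called, and the family was not tested as a whole. The 6 such integrin beta chains had a median of -0.02. Medians of the laminin and collagen IV families lay between -0.343 for laminin gamma and 0.165 for collagen IV. limma-voom called 2 of the 12 members it could test, COL4A2 and ITGA1, and 18.6% of all genes tested. The arms did not overlap for 4 of these 12 members, beside 57.6% of all genes with recovered reads. With each siY14 pair summed, limma-voom called 0 of 7492 genes at an adjusted p of 0.05, and 1846 had an unadjusted p under 0.05, 3 members among them.

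**Figure D4:**
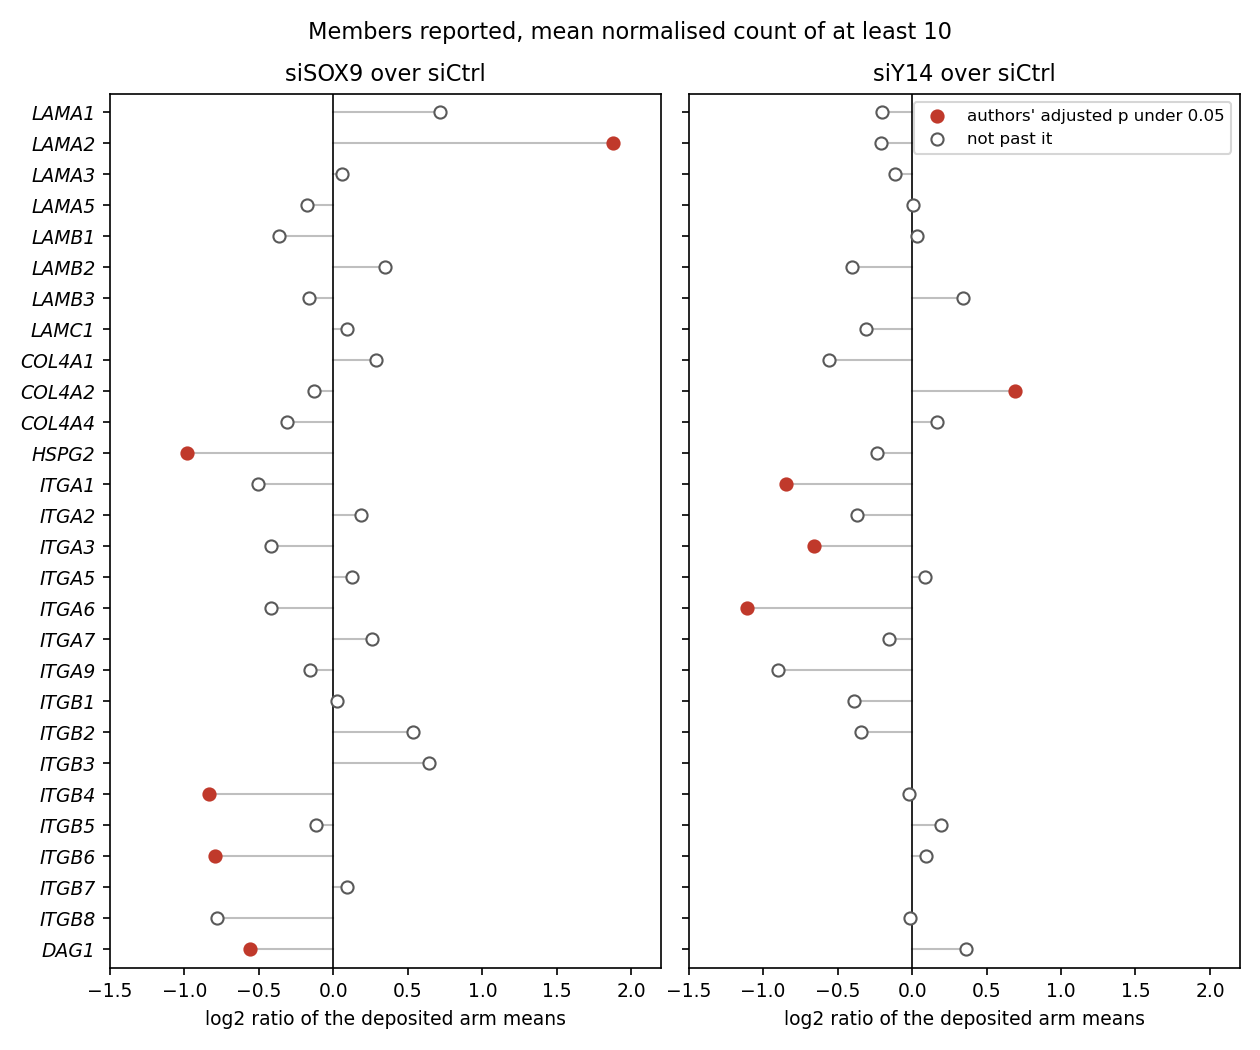
log2 ratio of the deposited arm means for each member reported here with a mean of at least 10, siSOX9 over siCtrl on the left and siY14 over siCtrl on the right; red circles are past an authors' adjusted p of 0.05. The red members are LAMA2, HSPG2, ITGB4, ITGB6 and DAG1 on the left, and COL4A2, ITGA1, ITGA3 and ITGA6 on the right.

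Whether the knockdowns differed was tested for the 12 members whose reads were recovered in all 4 arms, by fitting all 4 arms together with limma-voom, a test added after the data had been seen. The difference, the log2 fold change of siSOX9 minus that of siY14, was past an adjusted p of 0.05 for 4 members, beside 18.0% of the 6780 genes tested. LAMA2 differed by 2.11 ± 0.20 (SE, adjusted p = 3.47e-05). HSPG2 differed by -0.75 ± 0.16 (SE, adjusted p = 0.00793). COL4A2 differed by -0.85 ± 0.20 (SE, adjusted p = 0.0107), and ITGB6 by -0.82 ± 0.25 (SE, adjusted p = 0.0337). With the siY14 pairs summed, limma-voom gave adjusted p-values of 3.40e-04 for LAMA2, 0.0238 for HSPG2 and 0.0252 for COL4A2, and 0.0548 for ITGB6. Without siCtrl library b of experiment 3, LAMA2 alone was past the threshold, and without library a LAMA2 and HSPG2 were. ITGA1 differed by 0.41 ± 0.22 (SE, adjusted p = 0.218), and LAMA1, ITGB8, ITGA9 and COL4A1 also missed the threshold. For ITGA6, ITGB4, ITGA3 and DAG1 the difference was not tested, and the values of each comparison stand side by side above. The knockdowns were done in different experiments, so knockdown and experiment cannot be told apart in this difference.

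Genes that act with these members were read from lists of integrin adaptors, other laminin receptors, other matrix ligands, the dystroglycan complex, collagen processing and matrix proteases. Of 33 listed integrin adaptor genes, 1 rose and 2 fell under SOX9 knockdown, where 1.19% of all genes with reads were called higher and 2.27% lower. FERMT2, which encodes the integrin activator kindlin-2, averaged 128 normalised counts in siSOX9 cells and 15.4 in siCtrl cells, a log2 ratio of 3.05 (adjusted p = 1.52e-04) in the authors' deposited table. PARVA, the parvin of the complex that links integrins to actin, averaged 2545 in siSOX9 cells and 4482 in siCtrl cells, and VCL, which encodes vinculin, averaged 12862 in siSOX9 cells and 19226 in siCtrl cells. Of 29 other matrix ligands, NPNT, whose product nephronectin binds integrins, rose to 1280 in siSOX9 cells, against 605 in siCtrl cells, and TINAGL1 fell to 3362 in siSOX9 cells, against 5267 in siCtrl cells. Of 28 listed matrix protease and inhibitor genes, MMP24, TIMP2, TIMP3 and TIMP4 fell, with log2 fold changes from -1.21 to -0.55 in the authors' deposited table. Among collagen processing genes, PLOD3, a lysyl hydroxylase, fell to 4025 in siSOX9 cells, against 6534 in siCtrl cells. Of the 7 genes on the list of other laminin receptors and hemidesmosome genes, LAMTOR3 is neither. None of the 7 was called in the authors' deposited table, where 4 had an unadjusted p under 0.05, and limma-voom called 0 of the 2 it tested. None of the 23 listed dystroglycan complex genes was called there, 1 had an unadjusted p under 0.05, and limma-voom called 1 of the 12 it tested.

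Under Y14 knockdown 2 of 21 collagen processing genes rose, and 3.81% of all genes with reads were called higher and 5.35% lower. These list calls are those of the authors' deposited table, which takes the siY14 libraries as separate samples, and with the pairs summed limma-voom called 0 genes. SERPINH1, the collagen chaperone, averaged 4944 normalised counts in siY14 cells and 3083 in siCtrl cells, and its adjusted p was 0.0327 in the authors' deposited table. PLOD3 averaged 9233 in siY14 cells and 6367 in siCtrl cells, and its adjusted p was 0.0311 in the authors' deposited table. BCAR1, an adaptor of integrin signalling, rose to 4360 in siY14 cells, against 2564 in siCtrl cells. FRAS1, a basement membrane protein of epithelia, fell to 3121 in siY14 cells, against 4999 in siCtrl cells. ISPD, which makes a sugar donor for dystroglycan, fell to 438 in siY14 cells, against 636 in siCtrl cells, and ADAM9, a membrane protease, fell to 17886 in siY14 cells, against 27387 in siCtrl cells. None of the 7 other laminin receptor and hemidesmosome genes was called for siY14, 1 had an unadjusted p under 0.05, and limma-voom called 0 of the 4 it tested. The medians of the 6 lists lay between -0.24 and 0.24 on the log2 scale in this table and between -0.12 and 0.28 in the siSOX9 table.

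Since LAMA2 is a chain of mesenchymal tissues, markers of other cells were read beside it. The 15 epithelial markers summed to 344633 normalised counts in siSOX9 cells and 390567 in siCtrl cells. By the authors' adjusted p 3 of them were called, KRT20 higher and VIL1 and ELF3 lower, beside 3.47% of all genes with reads. The 17 fibroblast and endothelial markers summed to 500 normalised counts in siSOX9 cells and 351 in siCtrl cells, with COL1A2, LUM and KDR listed at 0. Of these, COL1A1 and COL3A1 were higher and PDGFRB was lower in siSOX9 cells. COL1A1 averaged 82.6 in siSOX9 cells and 34.1 in siCtrl cells, COL3A1 averaged 11.9 in siSOX9 cells and 0.647 in siCtrl cells, and PDGFRB averaged 55.8 in siSOX9 cells and 103 in siCtrl cells. The largest part of both sums was ACTA2, with 303 in siSOX9 cells and 167 in siCtrl cells. It was not called (adjusted p = 0.0519 in the authors' deposited table). The 13 immune markers summed to 178 in siSOX9 cells and 198 in siCtrl cells. In the siY14 table the fibroblast and endothelial markers summed to 190 in siY14 cells and 262 in siCtrl cells. There the epithelial markers summed to 348093 in siY14 cells and 465124 in siCtrl cells. By the authors' adjusted p 5 of these 15 were called lower, CDH1, KRT20, VIL1, CDH17 and LGALS4, beside 5.35% of all genes with reads. CDH1 averaged 19499 in siY14 cells and 44973 in siCtrl cells. Such calls take the siY14 libraries as separate samples, and with the pairs summed limma-voom called 0 genes. The part of these markers in the changes of the members was not tested.

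The members below a mean of 10 in both tables were COL4A3, COL4A5, COL4A6, ITGA4, ITGA8, ITGA10, ITGA11, ITGAL, ITGBL1, LAMA4, LAMB4, LAMC3, NID1 and NID2. ITGA11, a collagen receptor chain of fibroblasts, was the highest of these 14, with 6.59 normalised counts in siSOX9 cells and 3.56 in its siCtrl cells. The nidogens, which link laminin to collagen, averaged 0.688 for NID1 and 3.56 for NID2 in siSOX9 cells, against 0.193 and 1.55 in siCtrl cells. Each table listed 2 of the 43 members at 0, ITGA10 being one of them in both. ITGB3 and ITGB7 passed the minimum in the siSOX9 table only.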

How the data were processed

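RNA-seq of 13 DLD-1 samples was analysed from 2 deposited tables. Per the labels' protocols, DNase-treated RNA was purified by polyA selection and made into stranded libraries. The submitters' processing notes name hg19, DESeq, HTSeq, SAMtools, HISAT2, TopHat2 and Bowtie, with no version and no setting in the sources used here. Per the file headers, the deposited tables hold a signal, the mean of read counts divided by size factors, per arm and over all libraries. They also hold the authors' fold change, a ratio of arm means (the knockdown arm on top), its log2 value, and a p-value with its adjusted p-value. The number of unused per-sample columns was 0. The members, gene lists and tests were chosen with earlier results of these data known.

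The main values are the authors' fold changes and adjusted p-values, with a threshold of 0.05. Genes named from the supporting lists are those past that threshold, apart from LAMTOR3, ACTA2 and genes listed at 0. Of the members, all with a mean of at least 10 are given except 1 that is not reported here, the called ones, LAMA2 and the highest of each family in detail.

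Whole reads were recovered for a gene where 1 set of reads gave the printed 15-digit mean and had a posterior of at least 99.9% under a 20% coefficient of variation and of at least 99% under 40%. This favours sets with even libraries, so standard deviations of genes with high means may be too small. Tested on simulated data, 943 of 1445 siSOX9 sets and 916 of 1460 siY14 sets were accepted, with 0 wrong; of means shifted off a whole-read sum, 136 and 97 were accepted, so a recovered set of a high mean is not certain. The recovered reads were tested, above the minimum mean of 10, in R 4.3.3 with voom of limma 3.58.1, scaling by the size factors of the authors and adjusting by Benjamini-Hochberg. On simulated data with 8104 genes for siSOX9, 84 of 90 simulated 2-fold changes and 110 of 110 simulated 4-fold changes were found. Of 201 calls, 7 were false. These simulated libraries were independent and lacked the shared deviation of the deepest siSOX9 and siCtrl libraries, so the rates may not hold for the data. For siY14, with 7492 genes and independent libraries, 92 of 104 and 96 of 96 were found, and 13 of 201 calls were false. Promoter windows and their sequences are from RefSeq, GRCh38.p14; exon lengths are from GENCODE on GRCh38, and all 43 members had one.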

Additional observations from a re-analysis of the deposited data

How the results depend on the processing

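No paired analysis was possible because the deposited arms and the recovered libraries carry no replicate number; the term for depth class used below was drawn from the data and is not a pairing by label. Adjusting over genes with a mean of at least 10 left 5 called members for siSOX9 and 4 for siY14. limma-voom could test 17 members of the siSOX9 table, of which it called 4, and 4 with TMM factors; leaving out 1 library at a time gave 3 to 5. LAMA2, HSPG2 and ITGB6 were past an adjusted p of 0.05 by limma-voom in each of these fits. ITGB8 was not called without siSOX9 library b, c or d or without siCtrl library a. Without the deepest library of each arm 7 members were called, beside 2337 of all 8104 genes tested. With depth class as a term, which was added after seeing the data, 11 members were called, beside 3870 of the 8104 genes. The counts thus rose over all genes and not in the members alone. In the siY14 table limma-voom called 2 of 12 testable members, 2 with TMM factors, and 0 to 3 with 1 library left out. Either siCtrl library left out gave 0 called members and 1 called gene among 7492, and summed siY14 pairs, added after seeing the data, gave 0. The difference between the knockdowns, also added after seeing the data, was called for 1 to 6 members with 1 library left out, 2 without siCtrl library a of experiment 3 and 1 without library b, against 4 with all libraries; LAMA2 was called each time. ITGB6 lost its call there in 7 of 13 such fits.

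The median log2 fold change of the members in the siSOX9 table was 0.055 over the 17 recovered members alone, and 0.017 to 0.069 with 1 library left out, against -0.119 over 29; the 12 members left out of it are mostly the highly expressed ones. The siY14 median stayed between -0.25 and -0.172 under its alternatives. Depth limits the members with means under 10, whose values rest on a few reads, and the 2 siCtrl libraries limit every siY14 call.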
